A study of Mus musculus with 32 samples.

Results

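The genes described here belong to mouse oocyte and early embryo gene families, with many genes in clusters and some alone. They were every protein-coding gene on a GRCm38 autosome in RefSeq whose symbol starts with Pramel, Oog, Obox, Zscan4, Nlrp4, Nlrp9, Usp17l or Tcl1b. The rule used symbols alone and found 78 genes among 20665 autosomal protein-coding genes: 45 Pramel, 4 Oog, 6 Obox, 4 Zscan4, 6 Nlrp4, 3 Nlrp9, 5 Usp17l and 5 Tcl1b genes. For each gene, the window was the gene body with 5 kb on each side, and the measurement was the length of that window lying inside H3K9me3 peaks. Neighbours less than 500 kb apart were joined, whatever their family, which gave 19 location clusters, 9 of them with a single gene. H3K9me3, trimethylation of lysine 9 of histone H3, was mapped by chromatin immunoprecipitation and sequencing in male germ cells from testes of mice carrying an Mvh-Venus transgene, a fluorescent reporter under a germ cell gene. The genotypes were Morc1 (+/-), called het below, and Morc1 knockout, called KO. The stages were E13.5 and E16.5 of gestation, P0, the day of birth, and P3. All groups carried the transgene, and het mice, not wild-type mice, were the comparison group.

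PRAME-like proteins (Pramel, with the oogenesins encoded by Oog genes) are leucine-rich repeat proteins, Obox genes encode oocyte-specific homeobox factors, and Zscan4 genes encode SCAN-domain zinc finger proteins of the cleavage-stage embryo. Nlrp4 and Nlrp9 genes encode oocyte NOD-like receptor proteins, Usp17l genes encode deubiquitinases, and Tcl1b genes encode relatives of the kinase co-activator TCL1. H3K9me3 is a mark of silent chromatin that in germ cells lies on transposons and on some clustered gene families, and MORC1 is an ATPase of male germ cells known for its part in transposon silencing.

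Promoter sequences show how unlike or alike these genes are at the DNA level. RefSeq promoter windows of GRCm38.p6, which run from 250 bases before to 50 bases after a transcript start, were given for 66 of the 78 genes. The 250 bases before the start are printed for 3 genes whose promoter window was touched by a peak in all 8 lists and that had the highest cover of their family, and for Pramel25, touched in 4. Capitals mark TATAAA, the core of a TATA box, or its reverse complement TTTATA. Pramel23 lies at chr4:143702712-143702961 (minus strand), Oog3 at chr4:144162652-144162901 (minus strand), Nlrp4b at chr7:10687571-10687820 (plus strand) and Pramel25 at chr4:143789084-143789333 (plus strand).
Pramel23: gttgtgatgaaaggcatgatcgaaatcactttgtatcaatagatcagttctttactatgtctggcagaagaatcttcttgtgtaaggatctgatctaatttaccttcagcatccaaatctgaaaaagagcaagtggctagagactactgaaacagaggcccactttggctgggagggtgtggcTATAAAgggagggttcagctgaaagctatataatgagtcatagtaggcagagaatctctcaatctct
Oog3: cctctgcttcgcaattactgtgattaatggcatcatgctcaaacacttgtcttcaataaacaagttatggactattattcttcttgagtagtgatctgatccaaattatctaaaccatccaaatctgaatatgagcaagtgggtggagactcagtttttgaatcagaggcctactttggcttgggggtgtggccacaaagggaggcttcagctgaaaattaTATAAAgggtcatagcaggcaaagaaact
Nlrp4b: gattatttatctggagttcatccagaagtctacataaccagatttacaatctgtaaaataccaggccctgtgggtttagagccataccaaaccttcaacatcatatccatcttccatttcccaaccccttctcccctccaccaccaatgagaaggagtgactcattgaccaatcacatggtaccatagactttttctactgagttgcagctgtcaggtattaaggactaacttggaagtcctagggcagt
Pramel25: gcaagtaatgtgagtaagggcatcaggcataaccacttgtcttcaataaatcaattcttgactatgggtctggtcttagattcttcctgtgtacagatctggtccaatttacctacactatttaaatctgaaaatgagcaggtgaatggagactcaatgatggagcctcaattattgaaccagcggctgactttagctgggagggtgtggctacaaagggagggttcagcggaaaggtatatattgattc

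The next sequences belong to Zscan4 genes, whose windows held no peak in any list. They are Zscan4b at chr7:10905051-10905300 (minus strand), Zscan4c at chr7:11005495-11005744 (plus strand) and Zscan4f at chr7:11397665-11397914 (plus strand). Zscan4c and Zscan4f, chosen after their values were seen, stand for the near-identical copies among the unmarked genes.
Zscan4b: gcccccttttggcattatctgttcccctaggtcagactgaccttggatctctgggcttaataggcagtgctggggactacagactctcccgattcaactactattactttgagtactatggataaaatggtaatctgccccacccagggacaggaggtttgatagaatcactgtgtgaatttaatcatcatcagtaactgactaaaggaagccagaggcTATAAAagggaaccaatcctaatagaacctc
Zscan4c: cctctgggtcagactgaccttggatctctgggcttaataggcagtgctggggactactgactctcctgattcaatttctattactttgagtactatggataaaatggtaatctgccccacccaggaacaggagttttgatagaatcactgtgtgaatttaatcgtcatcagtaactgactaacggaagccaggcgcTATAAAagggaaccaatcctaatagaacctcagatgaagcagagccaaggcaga
Zscan4f: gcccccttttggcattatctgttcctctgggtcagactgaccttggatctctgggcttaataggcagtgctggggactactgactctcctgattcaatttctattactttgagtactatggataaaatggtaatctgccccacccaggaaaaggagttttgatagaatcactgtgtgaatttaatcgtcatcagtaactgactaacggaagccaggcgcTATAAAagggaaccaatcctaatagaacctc

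The longest identical run between the printed stretches was 127 bases for Zscan4c with Zscan4f and 51 bases for Zscan4b with either of them. Among the 4 marked genes the longest was 18 bases, between Pramel23 and Pramel25. The Zscan4 stretches are copies from the same family, whereas the 4 marked genes span the Pramel, Oog and Nlrp4 families and were picked by their calls. The contrast in run length therefore follows from which genes were printed. It cannot show whether marked genes share less promoter sequence than unmarked genes. TATAAA or TTTATA stood in the promoter window of 23 of 66 genes (34.8%), against 15.0% of 16457 autosomal genes with a promoter window. The 23 include all 4 Zscan4 genes and close copies in the Pramel family, such as Pramel37, Pramel45 and Pramel50, so they are not independent of one another. TAATCC or its reverse complement GGATTA, the core of homeodomain sites of the Otx type, stood in 7 of 66 (10.6%), against 7.58%. The capitals and these counts describe letters, not bound sites.

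The deposited data were 8 peak lists, 1 for each stage and genotype, each for a group of 2 H3K9me3 samples. How the 2 samples of a group were combined is not given in the sources used here. Since each group has a single list, no value below carries an error between replicates, no difference was tested and no p-value is given. Autosomal peaks numbered from 50191 (E13.5 het) to 89020 (P0 KO), and their covered length from 159.7 Mb (E13.5 het) to 324.0 Mb (P0 KO). KO lists covered more than het lists at E13.5, P0 and P3 (1.14, 1.05 and 1.09 times) and less at E16.5 (0.918 times). Read depth was not given in the lists, and lists from deeper or cleaner libraries can hold more peaks. Peak lists hold no expression, so neither the cell type nor the knockout could be checked. The body of Morc1 (chr16:48431237-48630905), the targeted gene, held between 0 and 3.47 kb of called length per list. A smaller share of cells with the mark and less mark per cell cannot be told apart.

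Cover of the 78 windows ran from none to nearly whole. Averaged over the 8 lists, it was above 50% in 4 genes (Pramel23, Oog3, Nlrp4b and Pramel24), 20% to 50% in 14, under 20% in 21 and 0 in 39. Peaks covered 13.8% (E13.5 het), 16.0% (E13.5 KO), 15.4% (E16.5 het), 14.7% (E16.5 KO), 15.9% (P0 het), 17.6% (P0 KO), 11.3% (P3 het) and 13.3% (P3 KO) of the 1.88 Mb in their windows. In the same order, windows of all autosomal genes were covered to 3.59%, 4.26%, 6.07%, 5.58%, 6.57%, 7.65%, 6.87% and 8.07%. The families' cover was therefore above that of all genes in every list, by a wide margin at E13.5 and by less at P3. Restricting the comparison to the 14805 genes whose windows were as long as those of the families, 12.3 to 81.6 kb, gave 3.70% (E13.5 het) to 6.71% (P3 KO). Cover at or above this level was not particular to these families. In E13.5 het and P3 KO, 45 placental genes, described below, were at 38.3% and 40.6%. In the same lists, 25 other oocyte genes were at 15.5% and 12.5%, and 71 defensin genes at 9.82% and 14.9%. Zfp genes (4.64% and 6.97%) and 24 other early embryo genes (4.23% and 4.82%) were lower than the families.

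The placement was concentrated. A peak touched the window of 31 (E13.5 het), 31 (E13.5 KO), 30 (E16.5 het), 31 (E16.5 KO), 35 (P0 het), 33 (P0 KO), 31 (P3 het) and 34 (P3 KO) of the 78 genes. The background over all autosomal genes was 39.8%, 44.6%, 44.3%, 43.2%, 48.1%, 53.3%, 50.7% and 53.2%, so these counts, 38.5% to 44.9% of the families, were near or under it. No peak in any list touched 39 of the 78 genes, or 50%, against 29.8% of all genes. Another 22 were touched in all 8 lists, 28.2% against 27.0% of all genes, and 17 in 1 to 7 lists. A longer window is touched more readily, and these shares were not matched for window length. The windows span 1.88 Mb for the 78 genes and 1124 Mb for all 20665, so those of the families are shorter on average. Later counts of genes with a call or a difference have the same limit, except those over promoter windows. The Nlrp4 and Nlrp9 genes, 9 in number, held 48.8% to 57.1% of the covered length of the whole set. Nlrp4b alone held 12.9% (P0 KO) to 16.7% (E13.5 het). Windows of these families are also long, 301.2 kb for Nlrp4 and 179.7 kb for Nlrp9 of the 1884.9 kb in the whole set. Within the windows, gene bodies were covered more than the flanks in all 8 lists, 14.9% against 12.2% at E13.5 het and 14.2% against 12.0% at P3 KO. Over all genes the order was the opposite in all 8 lists, 3.25% of bodies against 5.96% of flanks at E13.5 het.

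**Figure D1:**
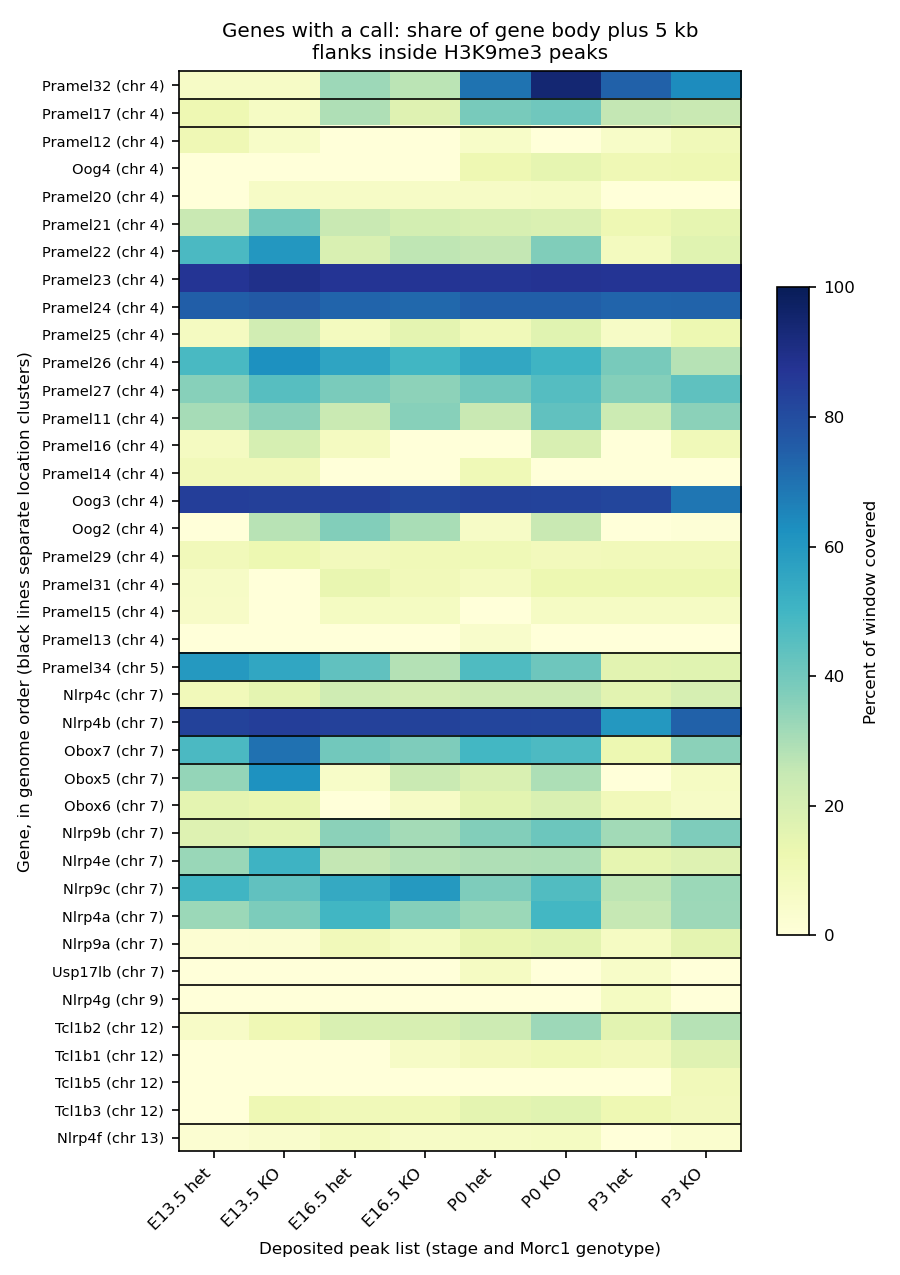
Percent of each gene's window (gene body with 5 kb on each side) inside H3K9me3 peaks, for the 39 genes with a call in at least 1 list, in genome order down and by list across. Pramel23, Pramel24, Oog3 and Nlrp4b are dark in every column, whereas Pramel32 darkens from E13.5 to P0 and Pramel34 pales by P3.

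The unmarked genes came from particular families and places. All 4 Zscan4 genes, 4 of 5 Usp17l genes, 26 of 45 Pramel genes, Obox1, Obox2 and Obox3, Oog1 and Tcl1b4 had no call in any list, while each Nlrp4 and Nlrp9 gene had a call in at least 1. On chromosome 5 lay the second largest cluster, 18 genes from Pramel33 to Pramel50 over 2264 kb (chr5:93481827-95736173), and 17 of those 18 genes had none. Only Pramel34 was called there. The ground between the windows of this cluster was also sparse, with 0.304% (P3 het) to 1.97% (E13.5 KO) covered, against 4.78% to 12.0% in the 500 kb on either side. Pramel35 to Pramel40 sat in a stretch of 627.3 kb without a call in any list, Pramel41 to Pramel45 in 785.2 kb, and Pramel46 to Pramel50 in 636.7 kb. Of the 121829 call-free stretches on the autosomes, 20 were at least as long as the shortest of these. Pramel39 lies inside Pramel40 and Pramel43 inside Pramel44, so their windows share the same ground.

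Obox1, Obox2 and Obox3 shared a call-free stretch of 587.5 kb, Oog1 lay in one of 455.1 kb, and Zscan4b and Zscan4c shared one of 261.1 kb. The 39 unmarked genes lay in 21 separate stretches, with a median over genes of 455.1 kb against 70.6 kb for all autosomal genes without a call. The shortest, around Tcl1b4, was 27.3 kb, and the 4 unmarked Usp17l genes had short ones too, 29.8 to 52.6 kb.

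Zscan4 stood beside the gene with the greatest covered length of the set. Nlrp4b and the 4 Zscan4 genes form a cluster of 724.5 kb on chromosome 7 (chr7:10687793-11402318). The window of Nlrp4b (chr7:10687793-10730168) was covered over 83.0% (E13.5 het), 84.2% (E13.5 KO), 83.2% (E16.5 het), 83.0% (E16.5 KO), 82.2% (P0 het), 81.9% (P0 KO), 59.8% (P3 het) and 74.1% (P3 KO). The other protein-coding genes within 500 kb were 10 Vmn1r pheromone receptor genes and Zik1, and their windows were covered to 63.7% (P3 het) to 86.4% (E13.5 KO). The Zscan4 windows were at 0 in every list, and the ground between the windows of the cluster was covered to 3.65% (P3 het) to 7.39% (E13.5 KO). In called cover, Zscan4 and the pooled windows of its Vmn1r and Zik1 neighbours thus lay at opposite ends of the range on 1 stretch of chromosome. For near-identical copies such as Zscan4, a lack of calls may not mean a lack of the mark, as set out below.

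Copy similarity went along with the absence of calls. For each promoter window, the share of its 31-base words that also occurred in the promoter window of another gene was computed on either strand. Among 31 unmarked genes with a promoter window, the median share was 66.3% and 23 had a share of 50% or more. For the 35 marked genes with a promoter window, the median was 14.8% and 5 had 50% or more. Many unmarked genes are copies in the same clusters that can share words with each other, so they are not independent of one another. These include the 4 Zscan4 genes (51.9% to 80.0%) and the unmarked Pramel genes of the chromosome 5 cluster (61.9% to 100%). Of all 16457 autosomal genes, 10.3% reached 50%, and of the 4949 without a call in any list, 19.3% did. Reads from near-identical copies cannot be placed uniquely, and how the authors treated them is not given in the sources used here. Its part in the missing calls was not tested, so an unmarked window here means only that no peak was called in it. The 4 unmarked genes with a share of 0 included Pramel7.

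**Figure D2:**
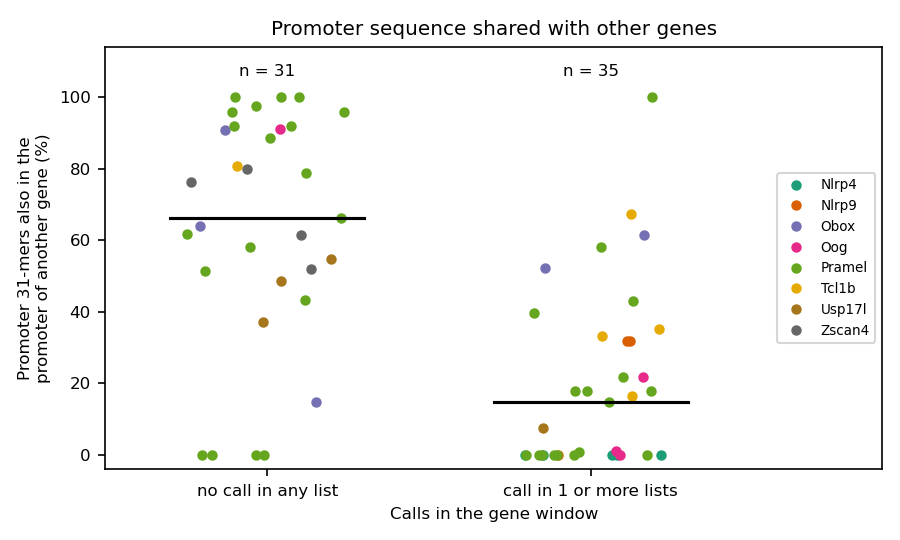
Percent of 31-base words of each gene's promoter window that also occur in the promoter window of another gene, for 31 genes without a call and 35 genes with a call in their window. Each point is a gene coloured by family and the bar is the median, 66.3% without a call and 14.8% with a call.

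The largest cluster held the steadiest windows of the set. It runs from Pramel1 to Pramel13 on chromosome 4 (chr4:143394441-144408467) and holds 23 Pramel and Oog genes. Covered length there was 80.6 kb (E13.5 het), 97.7 kb (E13.5 KO), 80.7 kb (E16.5 het), 80.1 kb (E16.5 KO), 81.5 kb (P0 het), 90.8 kb (P0 KO), 68.5 kb (P3 het) and 73.5 kb (P3 KO). Its P3 lists were the lowest 2 of the 8, and KO lay above het at E13.5, P0 and P3. Pramel23 (chr4:143696487-143702711) was covered over 86.8% (P0 het) to 89.4% (E13.5 KO) of its window, and its neighbour Pramel24 over 72.5% (E16.5 KO) to 76.2% (E13.5 KO). Oog3 (chr4:144157556-144162651), an oogenesin gene, was at 81.9% to 84.2% in 7 lists and at 69.1% in P3 KO. In the same cluster, Pramel1, Pramel4, Pramel5 and Pramel30 had no call in any list. Pramel13 was called only in P0 het, over 1.21 kb.

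Other genes of the cluster moved more. Pramel22 (chr4:143653760-143660598) was covered over 8.04 kb in het against 10.1 kb in KO at E13.5, 3.22 against 4.41 kb at E16.5, 4.31 against 6.25 kb at P0 and 1.32 against 2.83 kb at P3. KO exceeded het at each stage, and both genotypes were lowest at P3. Oog2 read 0 kb in het against 4.48 kb in KO at E13.5, 5.97 against 4.88 kb at E16.5, 1.00 against 3.94 kb at P0 and 0 against 0.176 kb at P3. Oog4 had no call at E13.5 or E16.5 and 2.57 to 3.38 kb in the 4 lists from P0 and P3.

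The Nlrp4 and Nlrp9 genes include the longest covered windows. Nlrp4b was covered over 43.5 kb in het against 44.1 kb in KO at E13.5, 43.6 against 43.5 kb at E16.5, 43.0 against 42.9 kb at P0 and 31.3 against 38.8 kb at P3. The 6 lists up to P0 lay within 42.9 to 44.1 kb, and both P3 lists were lower. In every list the longest peak touching any of the 78 windows lay over Nlrp4b, from 32.3 kb (P3 het) to 63.2 kb (E13.5 KO), where it reached from chr7:10705610 to 10768855. Nlrp4e (chr7:23301192-23362277), which has 19 Vmn1r genes within 500 kb, read 23.5 kb in het against 36.1 kb in KO at E13.5, 18.1 against 19.8 kb at E16.5, 20.8 against 20.9 kb at P0 and 10.5 against 12.3 kb at P3. The E13.5 KO value stood above the other 7.

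Nlrp9b (chr7:19991393-20062942) ran in the other direction from E13.5 to E16.5. Its covered length was 14.3 kb in het against 13.0 kb in KO at E13.5, 28.7 against 25.3 kb at E16.5, 30.1 against 33.6 kb at P0 and 25.5 against 30.6 kb at P3. Both E13.5 lists were the lowest. At that stage 1.43% and 2.33% of the 500 kb on either side was covered in het and KO. The cluster of Nlrp9c, Nlrp4a and Nlrp9a (chr7:26364691-26574148), which lies among 10 Cyp genes, read 42.2 kb in both E13.5 lists, 56.5 kb (het) and 51.5 kb (KO) at E16.5, 42.0 and 55.8 kb at birth, and 29.4 and 40.0 kb by P3. Within it Nlrp4a held 16.7 kb in het against 19.5 kb in KO at E13.5, 25.5 against 18.6 kb at E16.5, 16.6 against 25.2 kb at P0 and 12.8 against 16.4 kb at P3. Its genotypes thus changed places between E16.5 and P0.

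Nlrp4c (chr7:6045161-6105149) rose from 6.61 kb (het) and 10.7 kb (KO) at E13.5 to between 11.5 and 16.0 kb in the later 6 lists. Nlrp4f on chromosome 13 never exceeded 3.03 kb, and Nlrp4g on chromosome 9 had a call only in P3 het, of 1.34 kb. Nlrp9a read 1.00 kb (E13.5 het) to 7.77 kb (P0 KO).

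Of the 6 Obox genes, 3 were called, and in both genotypes each was lower at P3 than at E13.5. Obox7 (chr7:14659708-14665996) read 7.80 kb in het against 11.4 kb in KO at E13.5, 6.51 against 6.16 kb at E16.5, 8.05 against 7.72 kb at P0 and 2.04 against 5.79 kb at P3. Obox5 (chr7:15750370-15759274) read 6.38 against 11.7 kb at E13.5, 1.00 against 4.57 kb at E16.5, 3.58 against 5.55 kb at P0 and 0 against 1.26 kb at P3. In both genes the highest value was in E13.5 KO and the lowest in P3 het. Obox6 lay between 0 kb (E16.5 het) and 3.14 kb (P0 KO).

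The Tcl1b cluster, Pramel32 and Pramel17 gained cover up to P0. The cluster from Tcl1b2 to Tcl1b4 (chr12:105147019-105206993) read 1.00 kb in het against 3.67 kb in KO at E13.5, 4.88 against 6.10 kb at E16.5, 7.78 against 9.68 kb at P0 and 5.82 against 8.89 kb at P3. KO exceeded het at each stage. Tcl1b2 held the most of it, with 5.50% (E13.5 het) to 32.3% (P0 KO) of its window covered, and Tcl1b5 was called only in P3 KO, over 1.40 kb. Pramel32 (chr4:88627320-88634186), a lone gene beside 13 Ifna interferon genes, read 1.00 kb in both E13.5 lists, 5.44 kb (het) and 4.57 kb (KO) at E16.5, 11.8 and 15.9 kb at birth, and 12.5 and 10.7 kb by P3. In P0 KO that was 94.4% of its window, while 10.1% of the 500 kb on either side was covered. Pramel17 read 2.27 against 1.25 kb at E13.5, 5.58 against 3.22 kb at E16.5, 7.38 against 7.70 kb at P0 and 4.86 against 4.66 kb at P3. Pramel18 and Pramel19 beside it had no call.

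Pramel34 (chr5:93635182-93671509) took the opposite course. It read 27.5 kb in het against 25.7 kb in KO at E13.5, 20.2 against 13.1 kb at E16.5, 21.7 against 18.8 kb at P0 and 7.46 against 7.68 kb at P3. Both P3 lists were the lowest, and het exceeded KO at the other 3 stages. Clusters with no called base in any list were Pramel7 with Pramel6 among 49 olfactory receptor genes, Usp17ld with Usp17lc, Oog1 and Pramel51. The windows of the 49 olfactory receptor genes were covered to 6.41% (E13.5 het) to 34.5% (E16.5 het). Usp17lb, in the other Usp17l cluster, was called only in P0 het and P3 het, over 0.833 and 0.662 kb.

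**Figure D3:**
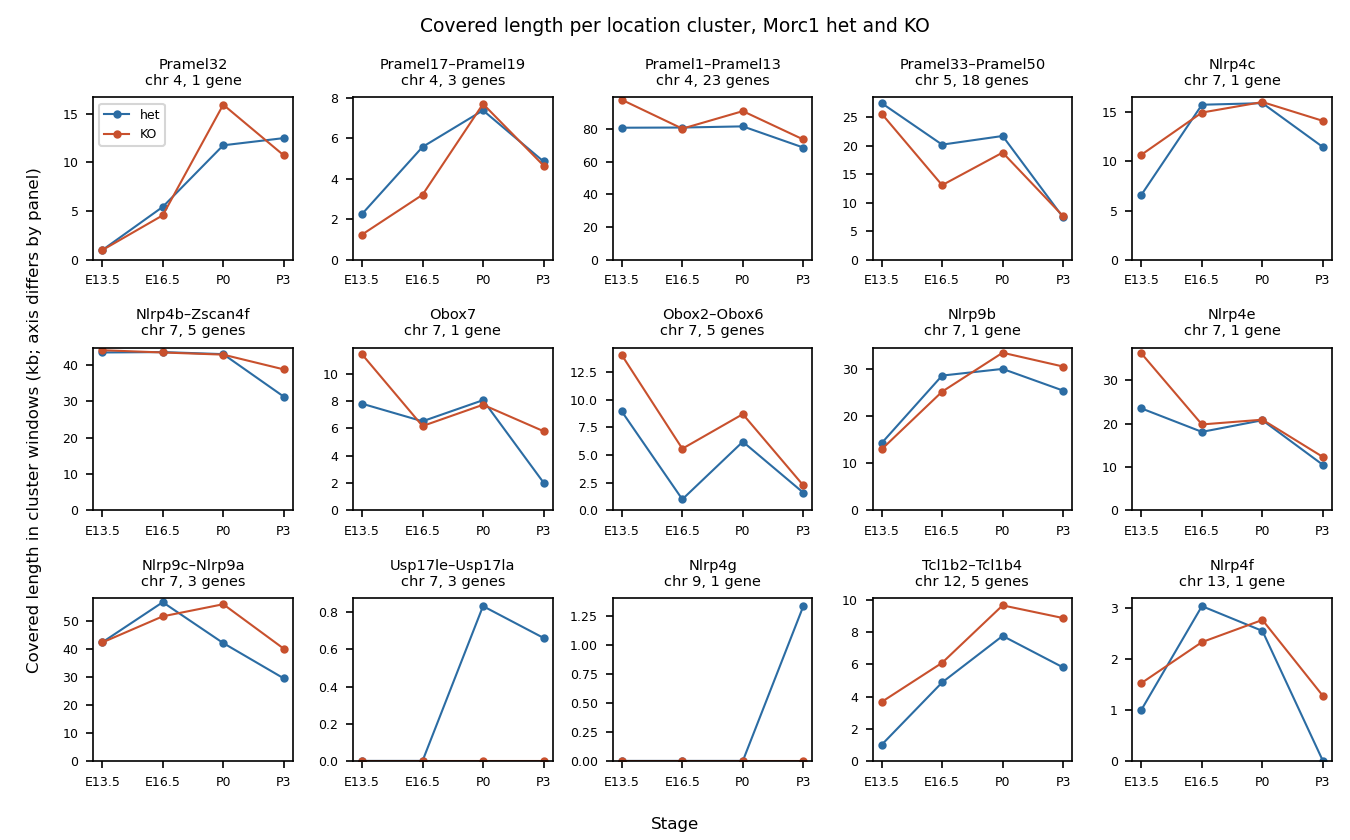
Covered length (kb) in the windows of each location cluster with a call, by stage, in Morc1 het (blue) and KO (orange); each point is 1 list and the vertical axis differs by panel. The cluster from Pramel1 to Pramel13 stays between 68.5 and 97.7 kb, whereas Pramel34, the only called gene of the chromosome 5 cluster, falls to 7.46 kb (het) and 7.68 kb (KO) at P3.

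From P0 to P3 the families lost cover in both genotypes while genes at large did not. The P3 lists covered 0.711 times the P0 length of the 78 windows in het and 0.757 times in KO. Over the windows of all genes the ratios were 1.05 and 1.05, and over all autosomal ground 0.900 and 0.938. By family, in het and KO, the P3 to P0 ratio was 0.740 and 0.733 for Pramel, 0.915 and 0.677 for Oog, 0.255 and 0.490 for Obox, 0.683 and 0.769 for Nlrp4, 0.757 and 0.845 for Nlrp9, and 0.748 and 0.918 for Tcl1b. All 6 families with calls in both P0 lists were thus below 1 in both genotypes. Cover was lower at P3 in 13 of the 19 clusters in either genotype and higher in 2 in het and 0 in KO.

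Gene by gene the step looked alike. A difference was called where 2 lists differed by at least 1000 bp in a window, just under the 1001 bp of the shortest and most common peak. Covered length fell past this limit from P0 to P3 in 21 of the 78 genes in het, against 14.8% of all genes, and in 21 in KO, against 16.1%. It rose in 2 in het, Nlrp4g and Pramel15, against 21.7%, and in 3 in KO, Pramel12, Tcl1b1 and Tcl1b5, against 22.0%. Among genes with a call in either list, 56.8% of 37 fell in het and 60.0% of 35 in KO, against 26.2% and 26.9% of all such genes. The largest loss in both genotypes was at Pramel34, of 14.3 kb in het and 11.2 kb in KO. All 3 Obox genes with calls and each Nlrp4 and Nlrp9 gene with a P0 call were lower at P3 in both genotypes, Nlrp9a in KO by less than the 1000 bp limit.

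The loss at P3 was not particular to these families among clustered genes. The P3 to P0 ratio was 0.817 in het and 0.903 in KO for 71 defensin genes, and 0.867 and 0.911 for 45 placental genes (prolactin, Psg and cathepsin clusters). It was 1.05 and 1.11 for 391 Zfp genes, many of which are clustered too. For 25 other oocyte genes, a list that includes the Nlrp relatives Nlrp2, Nlrp5 and Nlrp14 and also Oosp1, Oosp2 and Oosp3, it was 0.752 and 0.801. For 24 other early embryo genes it was 0.297 and 0.834. These lists were fixed by symbol, and none of the ratios has an error.

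Of these other oocyte genes, 8 (E13.5 het, where 39.8% of all genes had one) to 12 (P3 KO, 53.2%) of 25 had a call. In all, 9 of 25, among them Figla, Gdf9, Nobox and Zar1, had none in any list, against 29.8% of all genes. Another 6, Kit, Mos, Nlrp2, Nlrp5, Nlrp14 and Oosp1, had a call in all 8 lists, against 27.0% of all genes. Of the other early embryo genes, 5 (P3 het, 50.7%) to 11 (E13.5 KO, 44.6%) of 24 had a call. In any list, 9 had none, among them Pou5f1 and Nanog, and 4, Arg2, Khdc1a, Spz1 and Tdpoz3, had a call in all 8. From P0 to P3, 7 of 25 and 7 of 24 fell past 1000 bp in het (all genes 14.8%) and 6 and 4 in KO (16.1%). In the same step 3 and 0 rose in het (21.7%), and 2 and 3 in KO (22.0%).

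**Figure D4:**
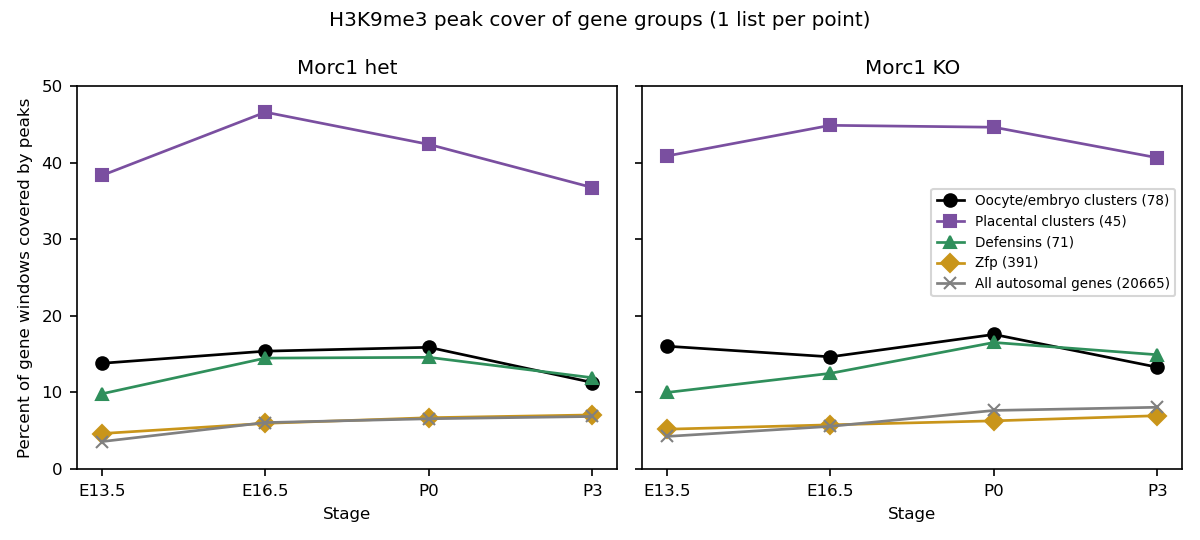
Percent of gene windows covered by H3K9me3 peaks by stage, in Morc1 het (left) and KO (right), for the 78 genes, 3 other groups and all autosomal genes; each point is 1 list. The 78 genes lie above all genes in every list and drop from P0 to P3, from 15.9% to 11.3% in het and from 17.6% to 13.3% in KO, while all genes do not.

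Earlier steps were mixed. From E13.5 to E16.5 cover in the 78 windows changed by a factor of 1.11 in het and 0.913 in KO, whereas over all genes it was 1.69 and 1.31 times. In het 13 genes gained past 1000 bp (background 27.7%) and 9 lost (9.50%), and in KO 10 gained (22.0%) and 13 lost (15.4%). Nlrp9b gained the most in both genotypes, 14.4 kb in het and 12.3 kb in KO. The largest losses were at Pramel34 in het, of 7.29 kb, and at Nlrp4e in KO, of 16.3 kb. From E16.5 to P0 the factors were 1.03 and 1.20, against 1.08 and 1.37 over all genes. With only the longer 50% of each list's peaks, the het factor was 0.958. In het 15 genes gained (21.6%) and 6 lost (14.7%), and in KO 16 gained (32.1%) and 1, Nlrp9c, lost (8.05%). Pramel32 gained the most in both genotypes, 6.32 kb in het and 11.4 kb in KO, and Nlrp4a lost the most in het, 8.90 kb. The whole course from E13.5 to P3 came to 0.818 times in het and 0.829 times in KO, while all genes reached 1.91 and 1.89 times.

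Fewer of the calls in these windows were postnatal alone. Of the length called in at least 1 list, 31.9% was called in all 8, against 14.3% over all genes. Calls confined to P0 and P3 lists made up 13.0%, against 40.2%, and calls in both embryonic and postnatal lists 71.8%, against 44.8%. Of the length called in both E13.5 lists, all 8 lists called 60.2%, as over all genes (60.2%), and neither P3 list called 23.3%, against 21.5%. Of the length called in both P0 lists, 18.7% was in neither P3 list, against 11.0% over all genes. The length called in both P3 lists and in neither P0 list was 3.40 kb. That was 0.764% of the length called in at least 1 list, against 6.91% over all genes.

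Differences between genotypes in the sum followed those of all genes. KO covered 1.16 times the het length of the 78 windows at E13.5, 0.952 times at E16.5, 1.11 times at P0 and 1.18 times at P3. Over all genes the ratios were 1.19, 0.919, 1.17 and 1.17. Among clusters, KO was higher in 8 and lower in 4 at E13.5, higher in 3 and lower in 10 at E16.5, higher in 10 and lower in 4 at P0, and higher in 11 and lower in 4 at P3. Of the length called in either genotype at a stage, the fraction called in both was 0.720, 0.794, 0.749 and 0.712 from the first stage to the last, above the 0.649, 0.770, 0.655 and 0.631 over all genes.

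Single genes differed past 1000 bp in both directions. KO exceeded het in 14 genes at E13.5 (background 18.7%), 8 genes at E16.5 (4.48%), 13 genes at P0 (25.2%) and 18 genes at P3 (23.9%). Het exceeded KO in 6 (5.16%), 6 (11.7%), 4 (7.13%) and 4 (8.47%). At E13.5, P0 and P3 the KO counts, 17.9%, 16.7% and 23.1% of the genes, were at or under the background, and at E16.5 they were 10.3%. This background was not matched for window length. The E16.5 count was 3 with only the longer 50% of each list's peaks and 2 at a limit of 2000 bp. The shares of all genes at these settings are not given here, so these counts cannot be set against a background. Among genes with a call in either E16.5 list, KO was higher in 25.0% of 32 and in 9.66% of all such genes. The largest differences toward KO were at Nlrp4e at E13.5 (12.7 kb), Obox5 at E16.5 (3.57 kb), Nlrp4a at P0 (8.66 kb) and Nlrp4b at P3 (7.50 kb). Toward het they were at Nlrp9c at E13.5 (3.15 kb), Pramel34 at E16.5 (7.11 kb) and P0 (2.91 kb), and Oog3 at P3 (1.92 kb).

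**Figure D5:**
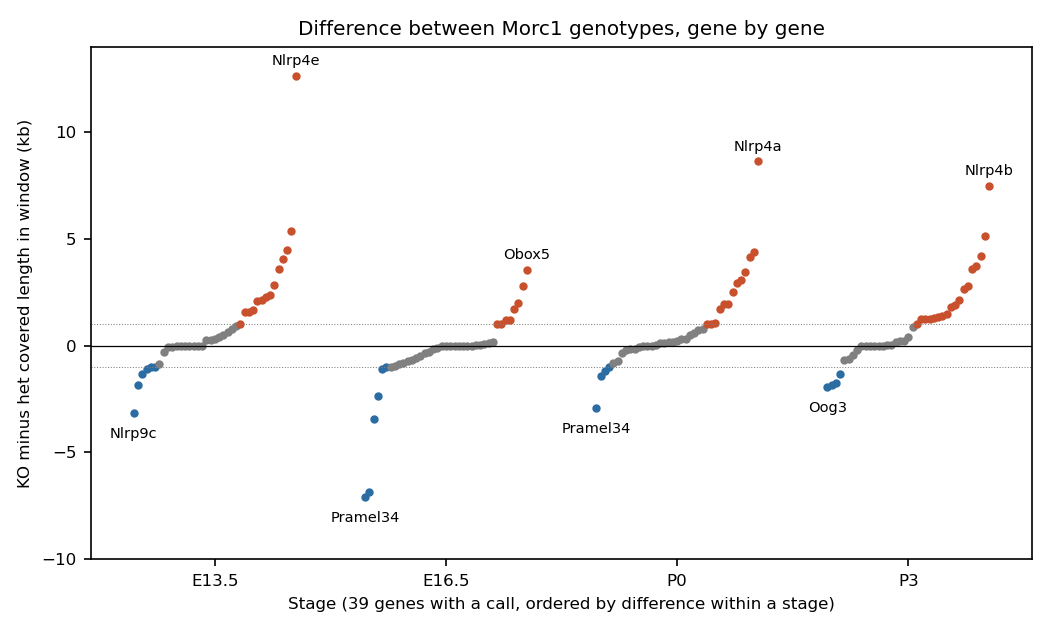
Covered length in the KO list minus that in the het list (kb) for the 39 genes with a call, ordered within each stage. Orange points are 1 kb or more higher in KO, blue points 1 kb or more higher in het and grey points between the dotted lines; the named extremes run from Nlrp4e, 12.7 kb higher in KO at E13.5, to Pramel34, 7.11 kb higher in het at E16.5.

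Some genes differed the same way at several stages. In 10 genes KO exceeded het past 1000 bp at 3 or 4 stages (12.8%, background 6.70%): Nlrp4a, Nlrp4e, Nlrp9c, Obox5, Pramel11, Pramel16, Pramel22, Pramel25, Pramel27 and Tcl1b2. The reverse held for Pramel34 alone (1.28%, background 1.26%). Of the 10, Obox5, Pramel22 and Pramel25 differed at all 4 stages (3.85%, background 0.503%, which is 104 genes), and none differed toward het at all 4 (background 0.121%). These margins lay near the limit: at 2000 bp, KO exceeded het in 2 genes at 3 or 4 stages (2.56%, against 2.41% of all genes) and in none at all 4. For bodies alone it did so in 5 genes (6.41%, against 5.62%) and in 1, Obox5. Of these 10 genes, 5 lie in the same chromosome 4 cluster, and Nlrp4a and Nlrp9c share another, so they are not independent of one another. At E16.5 Nlrp4a and Pramel16 went the other way past the limit, and so did Nlrp9c at E13.5.

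Pramel25 and Pramel11, in the same cluster, held ground called in every KO list and in no het list. Pramel11 (chr4:143894237-143900380) read 4.93 kb in het against 5.71 kb in KO at E13.5, 3.88 against 5.86 kb at E16.5, 3.95 against 7.01 kb at P0 and 3.76 against 5.68 kb at P3. Within it chr4:143893440-143895200, 1761 bp across the lower end of the gene body, was called in all 4 KO lists and in no het list. On the autosomes 35.5 kb in all was of that kind, and this run was the longest. The reverse, all 4 het lists and no KO list, came to 52.1 kb on the autosomes, with a longest run of 1266 bp, and to 0 in the 78 windows.

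Pramel25 (chr4:143789334-143795585) read 1255 bp in het against 3520 bp in KO at E13.5, 1313 against 2508 bp at E16.5, 1588 against 2671 bp at P0 and 1001 against 2002 bp at P3. A run of 896 bp (chr4:143789368-143790263), which begins just inside the gene body, was called in all KO lists only. Its promoter window was touched in all 4 KO lists, over 92, 300, 50 and 16 of its 300 bases from E13.5 to P3, and in no het list. Of 16457 autosomal genes with a promoter window, 2 showed that pattern (0.0122%), and none showed the reverse. The runs were chosen after the calls were seen, and 1 list per group leaves their error unknown.

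Most promoter windows were touched in no list, but the share touched was above the background in every list. A peak touched the promoter window of 6 (E13.5 het), 9 (E13.5 KO), 7 (E16.5 het), 7 (E16.5 KO), 6 (P0 het), 8 (P0 KO), 6 (P3 het) and 8 (P3 KO) of the 66 genes. The backgrounds were 4.80%, 6.35%, 5.27%, 4.99%, 5.40%, 6.05%, 4.86% and 5.75%, and the counts come to 9.09% to 13.6%. Those of Pramel23, Pramel24, Pramel26, Oog3 and Nlrp4b were touched in all 8 lists. That of Pramel32 was touched in P0 KO, P3 het and P3 KO, that of Nlrp9c in both E16.5 lists and P0 KO, and those of Pramel22 and Obox5 in E13.5 KO only. That of Pramel14 was touched in both E13.5 lists and P0 het, that of Oog2 in E16.5 het and that of Tcl1b1 in P3 KO. Nlrp4e and Nlrp9b, among the genes with the most covered length, had promoters touched in no list.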

How the data were processed

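H3K9me3 chromatin immunoprecipitation was sequenced in 16 samples and total H3 in 16, and no list of its own for an H3 sample was analysed here. The deposited lists give peak start and end coordinates only, with no score, so the unit is a position (other). Per the submitters' processing notes, the build was mm10 and the tools were bcl2fastq 2.20, cutadapt 1.18, Bowtie2 2.3.4.1, deepTools 3.5.0 and HOMER 4.10, with no roles given. The peak caller's settings, the control, the handling of replicates and of reads with several matches are not given in the sources used here.

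Genes came from the RefSeq table of GRCm38.p6, the assembly that mm10 represents. Overlapping peaks and windows were merged, and covered base pairs were counted with Python 3.11.15 and numpy 2.4.6, in code tested on simulated intervals. Members and lists were chosen with earlier results of these data known. Every cluster was named, and genes were named by a rule: the highest and lowest mean cover of each prefix, the largest genotype difference and step, and differences past 1000 bp at 3 or 4 stages. Other genes named in the text were chosen after their values were seen. Alternatives were the flank, the peak set, the 1000 bp limit and the joining distance. X-linked genes, pseudogenes and mitochondrial peaks were left out. The precision of a value cannot be given, since read depth and replicates are not in the lists.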

Additional observations from a re-analysis of the deposited data

How the results depend on the processing

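The KO to het ratios of the 78 windows kept their direction at all 4 stages under every alternative: no flank, a 20 kb flank, no peaks of 1001 bp, the longer 50% of each list, the longest 52628 peaks of each list, and, chosen after seeing the data, without Nlrp4b and without each cluster in turn. So did the P3 to P0 ratios, at 0.662 to 0.740 in het and 0.717 to 0.778 in KO. The P0 to E16.5 ratio in het, 1.03, turned to 0.958 with the longer 50% and to 0.963 with equal peak numbers. A kept direction does not set the KO to het ratios apart from 1. Their intervals from counting error alone, with each kb taken as independent, included 1 at all 4 stages. They were 0.981 to 1.37 (E13.5), 0.807 to 1.12 (E16.5), 0.944 to 1.29 (P0) and 0.982 to 1.41 (P3), and leave out any error between replicates.

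Levels and counts moved more. Except for the repeated differences, the counts below stand without the share of all genes at the same setting. They do not show whether these genes moved relative to all genes. With the longer 50% of each list, the share covered was 11.8% (E13.5 het), 13.4% (E16.5 het), 12.4% (E16.5 KO), 12.8% (P0 het), 15.2% (P0 KO), 9.10% (P3 het) and 10.9% (P3 KO). Equal peak numbers gave 13.4% (P0 het), 15.5% (P0 KO), 9.43% (P3 het) and 11.1% (P3 KO). Bodies alone gave 17.4% (E16.5 het) and 16.7% (E16.5 KO), and 20 kb flanks 15.8% (P0 KO). Genes with a call numbered 17 (E13.5 het), 19 (E16.5 KO), 21 (P0 het), 15 (P3 het) and 19 (P3 KO) with the longer 50%, and 17 (P3 het) and 20 (P3 KO) with equal peak numbers. Clusters with a call numbered 8 in P3 het with the longer 50%.

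Counts of genes higher in KO were 9 (E13.5), 5 (E16.5), 8 (P0) and 11 (P3) for bodies alone, 2 (E16.5), 7 (P0) and 8 (P3) at 2000 bp, 31 (E13.5) with 20 kb flanks, 5 (E16.5) without peaks of 1001 bp, 3 (E16.5) with the longer 50% and 11 (P3) with equal peak numbers. Counts higher in het were 3 (E13.5), 2 (P0) and 2 (P3) for bodies, 1 (E13.5), 1 (P0) and 0 (P3) at 2000 bp, 13 (E16.5) at 500 bp, 10 (E16.5), 12 (P0) and 9 (P3) with 20 kb flanks, 7 (P3) without 1001 bp peaks and 2 (P0) with the longer 50%. Alternatives for the repeated differences were chosen after seeing the data. The 10 genes higher in KO at 3 or 4 stages became 2 at 2000 bp (2.41% of all genes) and 5 for bodies (5.62%). They became 5 with equal peak numbers (4.32%) and 3 with the longer 50% (3.35%). The 1 higher in het became 2 at 500 bp (2.06% of all genes), and 0 at 2000 bp (0.373%) and for bodies (0.837%). The 3 higher in KO at all 4 stages became 0 at 2000 bp (0.0629% of all genes) and with equal peak numbers (0.440%). They became 1 for bodies (0.440%), without 1001 bp peaks (0.455%) and with the longer 50% (0.324%).

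From E13.5 to E16.5, het gains numbered 25 with 20 kb flanks, and het losses 5 for bodies, 16 with 20 kb flanks and 14 with equal peak numbers. KO gains numbered 5 at 2000 bp and with the longer 50%, and KO losses 8 at 2000 bp and 23 with 20 kb flanks. From E16.5 to P0, het gains numbered 6 at 2000 bp and with the longer 50%, 7 for bodies and with equal peak numbers, and 27 with 20 kb flanks. Het losses numbered 3 at 2000 bp, 2 for bodies and 11 with 20 kb flanks. KO gains numbered 10 at 2000 bp and 30 with 20 kb flanks, and KO losses 3 at 500 bp, 8 with 20 kb flanks, 5 without 1001 bp peaks, 2 with the longer 50% and 6 with equal peak numbers. From P0 to P3, het gains numbered 4 at 500 bp, 0 at 2000 bp, with the longer 50% and with equal peak numbers, and 1 for bodies and without 1001 bp peaks. KO gains numbered 0 at 2000 bp and for bodies, 6 with 20 kb flanks, and 1 with the longer 50% and with equal peak numbers. Het losses numbered 33 with 20 kb flanks and were otherwise within 1.5 times of 21, as KO losses were throughout.

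No paired analysis was possible because the lists carry no replicate, and leaving out replicates was not run for the same reason. Joining over 100 kb gave 34 clusters and over 1 Mb 17. Values that moved were judged against counting error alone, with each kb taken as independent. The cause of these shifts was not tested, except that a smaller peak set or window holds fewer calls by construction. Read depth is unknown.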
